A study of Sorghum bicolor with 18 samples.

Results

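Sobic.002G093700 and Sobic.002G093600 are 2 genes of sorghum (Sorghum bicolor) that carry consecutive identifiers and the title Mannose-binding lectin superfamily protein. They were chosen from the 34211 genes of the deposited table by their measured response, a very high and lasting difference between buds of leaf-removed and intact plants. That difference is therefore described here without a test, and it supports nothing further. The gene with the next identifier, Sobic.002G093800, has the same title but not the response, and it stands just outside the choice. The table matches all 3 to the Arabidopsis locus AT1G19715.2 and gives them exon lengths of 1209 bases (Sobic.002G093700), 1219 bases (Sobic.002G093600) and 2274 bases (Sobic.002G093800).

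All plants were the cultivar 100M. Treatment began 7 days after sowing, and the organ sampled was the bud in the axil of the first leaf. Leaf-removed plants had the coleoptile and the whole first leaf peeled away so that the bud was exposed, and intact plants were left as they were. Buds of both kinds were collected at 1, 3 and 6 h. Each of the 6 groups holds 3 libraries, so 18 were sequenced. Per the labels, 4 pools of 15 buds were harvested per group and the 3 pools with the best RNA were sequenced, so the spread between replicates is a spread between pools. No group received peeling without exposure of the bud, so wounding, handling, the loss of the leaf and the exposure of the bud cannot be told apart.

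Lectins are proteins that bind particular sugars without altering them. The Arabidopsis genes with this title encode jacalin-related lectins, a plant family in which some members prefer mannose and others galactose. In grasses several members are known from stress: the rice protein SALT, a mannose-binding lectin of this family, accumulates under salt, and a wheat member is induced by jasmonate, the hormone of wounding. Some grass members join the lectin domain to a dirigent domain, and one of these in maize binds and clumps beta-glucosidases, the enzymes that release toxic compounds from stored sugar conjugates. Which domains the sorghum pair holds was not analysed here.

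A library held 21.4 to 45.8 M exon reads (M for 1e6; median 28.7 M), and introns took 3.12% to 7.23% of the gene reads. In 5 libraries (intact 1 h c, intact 6 h d, leaf-removed 1 h d, 3 h b and 6 h d) many genes deviate alike from their group. Of 21852 genes with enough reads to test, 48.9% differed between leaf-removed and intact buds at 1 h and 34.0% at each of the later times. Such a gene is written as called: its Benjamini-Hochberg adjusted p from the edgeR quasi-likelihood test was under 0.05. Of the called genes 50.8%, 52.4% and 53.1% were higher at the 3 times. With library totals in place of TMM scaling 36.4%, 40.6% and 33.1% were higher, and the median log2 fold change of all tested genes was -0.25, -0.12 and -0.21 instead of -0.01, 0.00 and -0.03. Directions are relative to the TMM scale. Of the marker genes for shoot meristem and organ boundary, 12 of 13 had reads and 1, a gene annotated CUC2, was at 0 in all libraries.

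Sobic.002G093700 was barely expressed in buds under an intact leaf. Its RPKM, the authors' level per kilobase of exon and 1e6 reads, was 2.98, 2.24 and 3.09 in the intact pools b, c and d at 1 h. At 3 h it was 1.49, 0.940 and 0.735 in intact pools a, b and c, and at 6 h 0.989, 0.712 and 0.543 in pools a, c and d. These levels rest on 21 to 129 exon reads per library, and by RPKM the gene ranked between 13609 and 18023 among the genes of the table.

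One hour after the leaf was removed the same gene was among the most abundant transcripts of the bud. Its RPKM was 819.5, 812.6 and 853.7 in the leaf-removed pools b, c and d at 1 h, and 773, 886 and 866 in pools b, c and d at 3 h. By 6 h it stood at 204, 248 and 231 in pools a, b and d. Every leaf-removed library lay above every intact library, and the lowest leaf-removed value was 263 times the highest intact value at 1 h, 519 times at 3 h and 206 times at 6 h. Leaf-removed libraries lay above intact ones without overlap for 22.6% of the tested genes at the earliest time, for 19.1% at 3 h and for 16.5% at 6 h. Since the pair was chosen on this contrast, nothing is read from that comparison. In such bulk samples fewer cells of a type and less RNA per cell cannot be told apart.

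The means of Sobic.002G093700 were 2.77 ± 0.465 RPKM in intact buds and 829 ± 22.0 in leaf-removed ones at 1 h (SD, n = 3). They were 1.05 ± 0.390 and 842 ± 60.0 at 3 h, and 0.748 ± 0.225 and 228 ± 22.2 at 6 h. The 3 leaf-removed pools were close to each other at each time, with a coefficient of variation of 2.66%, 7.13% and 9.73%. In rank by RPKM the gene stood between 42 and 71 in the leaf-removed libraries at 1 h, between 51 and 57 at 3 h, and between 324 and 431 at 6 h. It took 0.109% of all exon reads at 1 h, 0.111% at 3 h and 0.0300% at 6 h. The fitted log2 fold change was 8.44 ± 0.25 (standard error) at 1 h, 9.77 ± 0.27 at 3 h and 8.45 ± 0.26 at 6 h, or 347-fold, 870-fold and 350-fold. Ordered by fitted fold change, it was number 77, 6 and 14 of the tested genes at the 3 times. The authors' deposited table gives fold changes of 328, 763 and 295 for it.

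Sobic.002G093600 was lower throughout and less even. In intact buds its RPKM was 0.298, 0.107 and 1.16 at 1 h (pools b, c and d), 0.827, 0.391 and 0.455 at 3 h (pools a, b and c), and 0.101, 0.412 and 0.0769 at 6 h (pools a, c and d). Only 3 to 49 exon reads per library stand behind these levels, so counting error is large in every intact group. In leaf-removed buds the RPKM was 84.4, 80.9 and 109 at 1 h (pools b, c and d), 87.2, 355 and 101 at 3 h (pools b, c and d), and 80.7, 67.7 and 126 at 6 h (pools a, b and d). No leaf-removed library overlapped an intact one, and the lowest leaf-removed value was 69.5, 105 and 164 times the highest intact value at 1, 3 and 6 h.

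Leaf-removed 3 h pool c stands out for Sobic.002G093600. Its level was 4.07 times that of the lowest pool of the group, while for Sobic.002G093700 the same 3 pools differed by 1.15 times at most. Group means were 0.523 ± 0.563 RPKM in intact buds and 91.4 ± 15.2 in leaf-removed ones at 1 h (SD, n = 3), 0.558 ± 0.235 and 181 ± 151 at 3 h, and 0.197 ± 0.187 and 91.3 ± 30.4 at 6 h. In rank by RPKM the gene lay between 822 and 1188 in leaf-removed libraries at 1 h, between 218 and 994 at 3 h and between 692 and 1378 at 6 h. In intact libraries it lay between 16403 and 21503.

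The fitted log2 fold change of Sobic.002G093600 was 7.67 ± 0.71 at 1 h, 8.45 ± 0.73 at 3 h and 9.02 ± 0.80 at 6 h, or 203-fold, 350-fold and 519-fold. Single pools move it by more than 1.5 times at each time: it was 493-fold without intact 1 h pool d, 184-fold without leaf-removed 3 h pool c and 1153-fold without intact 6 h pool c. Without the 5 libraries that deviate alike it was 7.04, 8.79 and 8.30 on the log2 scale at 1, 3 and 6 h, against 8.31, 9.84 and 8.26 for Sobic.002G093700. The authors' deposited table gives folds of 160.4, 281 and 314. In that table the pair holds the 2 highest folds at 6 h, with Sobic.002G093600 first and Sobic.002G093700 second. At 3 h Sobic.002G093700 is number 1 and Sobic.002G093600 number 4. At 1 h Sobic.002G093700 is number 4 and Sobic.002G093600 number 19. By the fitted fold change used here, Sobic.002G093600 was number 132, 31 and 6 of the tested genes at 1, 3 and 6 h.

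**Figure D1:**
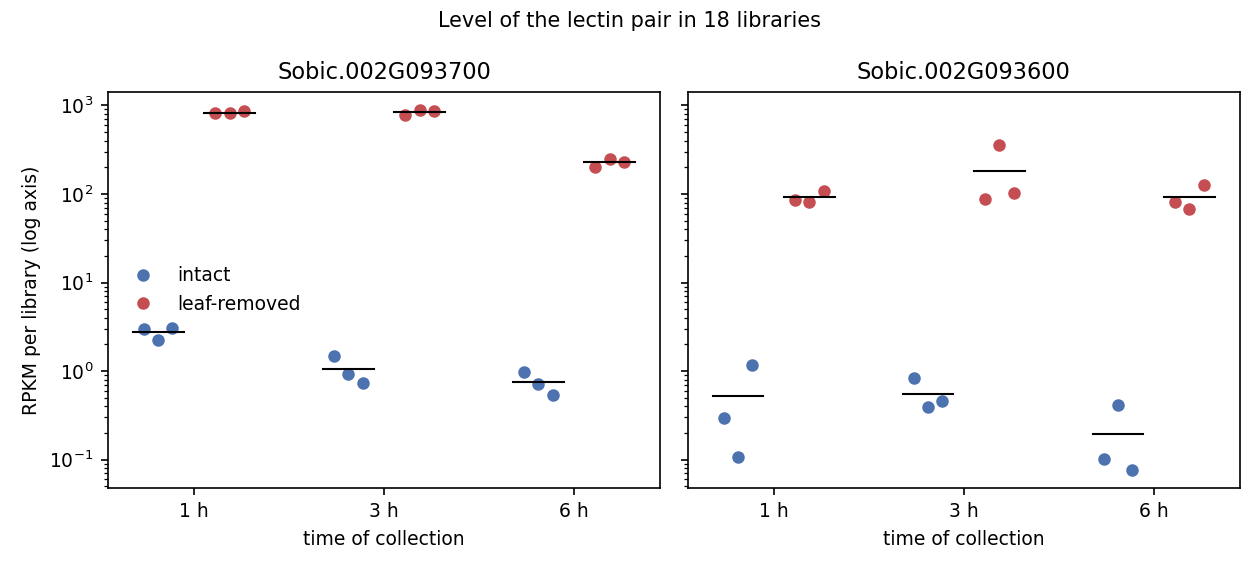
RPKM of Sobic.002G093700 (left) and Sobic.002G093600 (right) on a log axis, 1 point per library and a black line at the mean of each group of 3, for intact and leaf-removed buds at 1, 3 and 6 h. Leaf-removed libraries of Sobic.002G093700 lie between 204 and 886 and intact ones at 3.09 or less, and for Sobic.002G093600 leaf-removed 3 h pool c, at 355, stands above the other leaf-removed libraries.

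The pair parted over time. In leaf-removed buds Sobic.002G093700 at 3 h was 92.4% of its level at 1 h (log2 difference -0.11 ± 0.18), and at 6 h it was 26.1% of it (-1.94 ± 0.18). Sobic.002G093600 at 6 h was 94.7% of its level at 1 h (-0.08 ± 0.50), with a difference of 0.85 ± 0.50 between 3 h and 1 h that includes the high pool. These values are given without a test because the choice of the pair used all 6 groups.

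In intact buds the fitted level of Sobic.002G093700 at 3 h was 36.8% and at 6 h 25.9% of that at 1 h. The 3 intact libraries at 1 h all lay above the 6 later ones. For Sobic.002G093600 the values were 105% at 3 h and 37.1% at 6 h of the level at 1 h, with 20 to 66 reads in a whole intact group. These levels too are given without a test, since they are the denominators of the folds that chose the pair.

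For Sobic.002G093700 the 6 h level was thus 26.1% of the 1 h level in leaf-removed buds and 25.9% in intact buds. Its fold was accordingly 347 at 1 h and 350 at 6 h, with a leaf-removed level much lower at 6 h. The larger fold at 3 h, 870, came with an intact level already at 36.8% of that at 1 h and a leaf-removed level still at 92.4%. For Sobic.002G093600 the rise of the fold from 203 to 519 came with an intact group that went from 66 reads in all at 1 h to 20 reads at 6 h, and with leaf-removed means of 91.4 and 91.3 RPKM.

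The level of Sobic.002G093700 over that of Sobic.002G093600, both in RPKM, was 9.71, 10.04 and 7.85 in the leaf-removed libraries at 1 h. It was 8.86, 2.50 and 8.57 at 3 h and 2.53, 3.66 and 1.84 at 6 h. All 3 libraries at 6 h lay below all 3 at 1 h, and at 3 h pool c alone stood near the values of 6 h. In intact libraries, where few reads stand behind it, the ratio ran from 1.61 to 20.97. The log2 levels of the genes correlated with Pearson's r = 0.97 over the 18 libraries, which mostly restates the difference between leaf-removed and intact buds. Within the 9 leaf-removed libraries r was 0.29 and within the 9 intact ones 0.35, given as a description.

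Near-identical copies can share reads, so reads that map to 1 place were counted apart. Of 89418 exon reads of Sobic.002G093700 in the leaf-removed libraries at 1 h all were unique, as were all 29372 at 6 h, and at 3 h 2 of 94791 were not. For Sobic.002G093600 all 10003 reads at 1 h and all 10869 at 6 h were unique, and 1 of 20080 at 3 h was not. All intact reads of both genes and all their intron reads were unique as well. The authors' counting therefore had almost no reads to divide between the pair or with Sobic.002G093800.

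Reads in introns are usually taken to come from transcripts that are not yet spliced. Sobic.002G093700 had 209, 147 and 244 intron reads in the leaf-removed libraries at 1 h and 85, 76 and 57 at 3 h. At 6 h the numbers were 20, 69 and 76. Per 1000 exon reads this is 6.71 for the group at 1 h, 2.30 at 3 h and 5.62 at 6 h, and at 6 h the libraries ranged from 2.52 to 11.5. The 11.5 belongs to pool d, 1 of the 5 libraries that deviate alike. Over all genes introns took 4.99% of the gene reads in pool d, against 3.47% and 3.42% in pools a and b. The intact groups had 1 intron read each, too few to compare.

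Sobic.002G093600 showed another course. It had 42, 26 and 39 intron reads in the leaf-removed libraries at 1 h and 45, 97 and 12 at 3 h. At 6 h only 2, 1 and 1 were left. Exon reads per library were 2597 to 4198 at 1 h and 3161 to 4094 at 6 h, so the exon signal was of like size while the intron signal was nearly gone. Per 1000 exon reads the intron reads were 10.7 for the group at 1 h, 7.67 at 3 h and 0.368 at 6 h. Every library at 6 h, from 0.244 to 0.633, lay below every library at 1 h, from 9.29 to 13.1. The share at 6 h was 3.44% of that at 1 h, with an exact 95% interval of 0.921% to 9.07% that covers counting error only.

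This comparison of intron reads was chosen after the values had been seen. Among the 4047 genes with at least 3000 exon reads at both times and at least 50 intron reads at 1 h in leaf-removed buds, 3.44% was the lowest value. The median of these genes was 105%, and 5% to 95% of them lay between 53.4% and 196%. Sobic.002G093700, at 83.7% (exact 95% interval 70.0% to 99.6%), was number 1092 from the lowest. Over all genes the intron share in leaf-removed buds had group means of 3.86% of gene reads at 1 h, 4.02% at 3 h and 3.96% at 6 h.

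**Figure D2:**
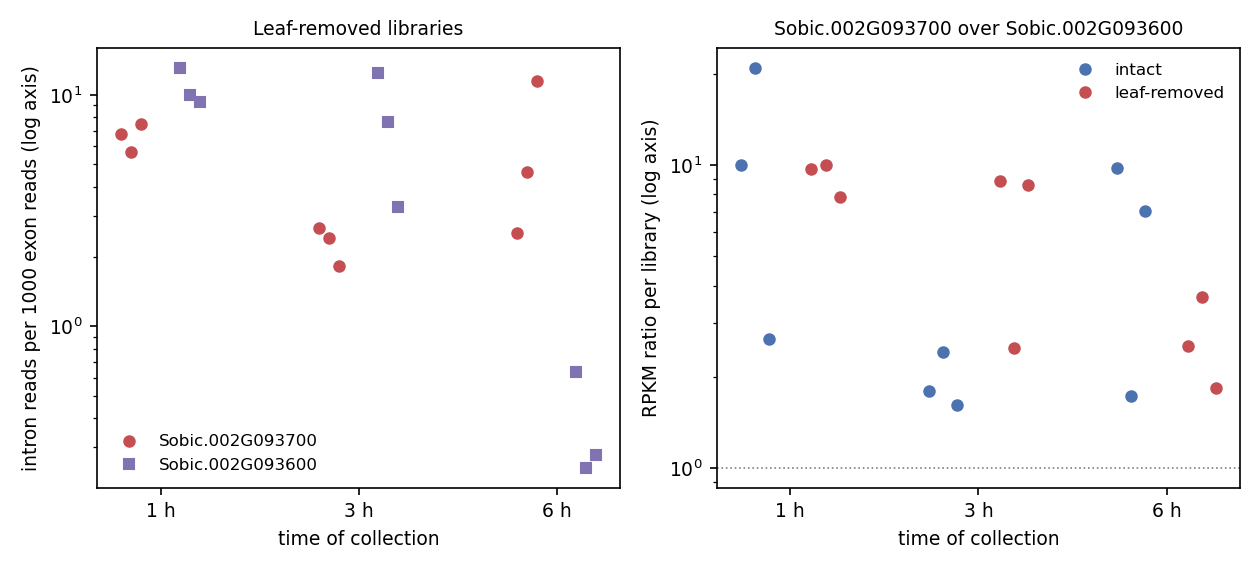
Left, intron reads per 1000 exon reads in the 9 leaf-removed libraries for each gene, on a log axis against time; right, RPKM of Sobic.002G093700 over that of Sobic.002G093600 in each of the 18 libraries, on a log axis with a dotted line at 1. Sobic.002G093600 has 9.29 to 13.1 intron reads per 1000 at 1 h and 0.244 to 0.633 at 6 h, and in leaf-removed libraries the ratio is 7.85 to 10.04 at 1 h and 1.84 to 3.66 at 6 h.

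The next identifier, Sobic.002G093800, did not share the response. It had 21, 26 and 24 exon reads in the intact libraries at 1 h and 16, 10 and 20 in the leaf-removed ones. At 3 h it had 22, 9 and 10 against 7, 19 and 3, and at 6 h 10, 12 and 11 against 14, 16 and 1. Its log2 fold change was -0.19 ± 0.63 at 1 h (edgeR adjusted p = 0.83), -0.44 ± 0.67 at 3 h (adjusted p = 0.65) and -0.31 ± 0.67 at 6 h (adjusted p = 0.75), none of it called. At 3 h and 6 h the sign turns when a single library is left out. With 1 to 26 reads per library, small changes in it were not detectable at this depth.

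The other genes with the same title are 14, counting Sobic.002G093800. Of these 7 had enough reads to test. For 3 of the 7, Sobic.001G344700, Sobic.001G344900 and Sobic.003G272800, this held only through the leaf-removed libraries. Such a filter favours genes that are higher there, though not at every time, so their reads are given without a test. Of the 4 with enough reads on either side, 2 were called higher and 0 lower at 1 h, where 24.82% of all tested genes were higher and 24.08% lower. At 3 h the counts were again 2 and 0, with 17.80% and 16.16% of all genes. At 6 h they were 1 and 1, with 18.04% and 15.92% of all genes. Without the 5 libraries, and likewise with DESeq2, 2 were higher and 1 lower at 6 h, and with library totals 2 were higher and 1 lower at 1 h.

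Another run of consecutive identifiers is Sobic.001G344700, Sobic.001G344800 and Sobic.001G344900, all matched to AT1G73040, an Arabidopsis gene with the same title. Sobic.001G344800 had RPKM values of 0.729, 0.239 and 1.56 in intact pools and 10.5, 9.68 and 6.31 in leaf-removed pools at 1 h, without overlap, and its log2 fold change was 3.62 ± 0.68 (edgeR adjusted p = 0.00034). That fold change was 3.15 ± 0.67 at 3 h (adjusted p = 0.0019) and 3.40 ± 0.69 at 6 h (adjusted p = 0.0014). Leaf-removed RPKM was 1.76, 8.48 and 8.35 at 3 h (pools b, c and d) and 6.32, 6.75 and 1.98 at 6 h (pools a, b and d). The low pools, 3 h b and 6 h d, are among the 5 libraries that deviate alike. With the replicate letter as a block within each time it was not called at 3 h (2.57, edgeR adjusted p = 0.15) or 6 h (3.10, edgeR adjusted p = 0.087).

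Sobic.001G344700 had 1, 4 and 4 exon reads in intact and 92, 74 and 77 in leaf-removed libraries at 1 h, and its log2 fold change was 5.16 ± 0.59. It had 3 reads in the intact group against 297 at 3 h, and at 6 h its log2 fold change was 4.12 ± 0.57. Sobic.001G344900 had 4 reads in the intact group against 60 in the leaf-removed group at 1 h, 1 against 37 at 3 h and 0 against 62 at 6 h. The last of these is at least 16.4-fold, taking 3 reads over the intact group as its upper limit. The highest mean of this run, 8.82 RPKM for Sobic.001G344800 at 1 h, compares with 829 for Sobic.002G093700 and 91.4 for Sobic.002G093600 in the same libraries.

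Sobic.009G021600, matched to AT1G19715.1, was called higher at 1 h (log2 fold change 3.34 ± 0.99, edgeR adjusted p = 0.011) and 3 h (3.56 ± 1.07, adjusted p = 0.016). The call is uneven between pools: leaf-removed RPKM at 1 h was 9.40, 3.19 and 0.698 against 0.0893, 0.747 and 0.683 in intact pools, so the groups overlap. Without leaf-removed 1 h pool b it was 2.08 at 1 h (adjusted p = 0.10). At 3 h the adjusted p was 0.056, 0.0698 and 0.076 without intact pool b, intact pool c and leaf-removed pool b. At 6 h the value was 2.95 ± 1.15 (adjusted p = 0.055). There the adjusted p was 0.010 with DESeq2, 0.046 without the 5 libraries and 0.034 to 0.046 with 1 of 5 single libraries left out, all from 1 h or 3 h. Sobic.003G272800 had 2 reads in the intact group and 41 in the leaf-removed group at 1 h. At 3 h it had 0 against 31, at least 9.97-fold, and at 6 h 1 against 5.

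One gene of the family changed the other way. Sobic.009G190700, matched to AT1G19715.3, had 1.66, 1.87 and 1.52 RPKM in intact pools and 0.641, 0.568 and 0.590 in leaf-removed pools at 6 h. The groups do not overlap, though the share of all genes that separate in this direction was not counted. The log2 fold change of the gene was -1.30 ± 0.21 (edgeR adjusted p = 0.00022). At 1 h and 3 h its values were -0.27 ± 0.21 (adjusted p = 0.30) and -0.40 ± 0.21 (adjusted p = 0.16). With library totals it was called lower at 1 h as well (-0.52, edgeR adjusted p = 0.035). With the replicate letter as a block within each time it was not called at 6 h (-1.21, edgeR adjusted p = 0.060). Only letters a and d occur in both groups at 6 h, so intact pool c and leaf-removed pool b do not enter that contrast. The effect at 6 h minus that at 1 h was -1.03 ± 0.29 (edgeR interaction test, adjusted p = 0.011), a comparison in which 38.1% of all tested genes were called. Of the 7 family genes too low to test, 3 had no read in any library and the other 4 had 25 or fewer reads in any group.

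**Figure D3:**
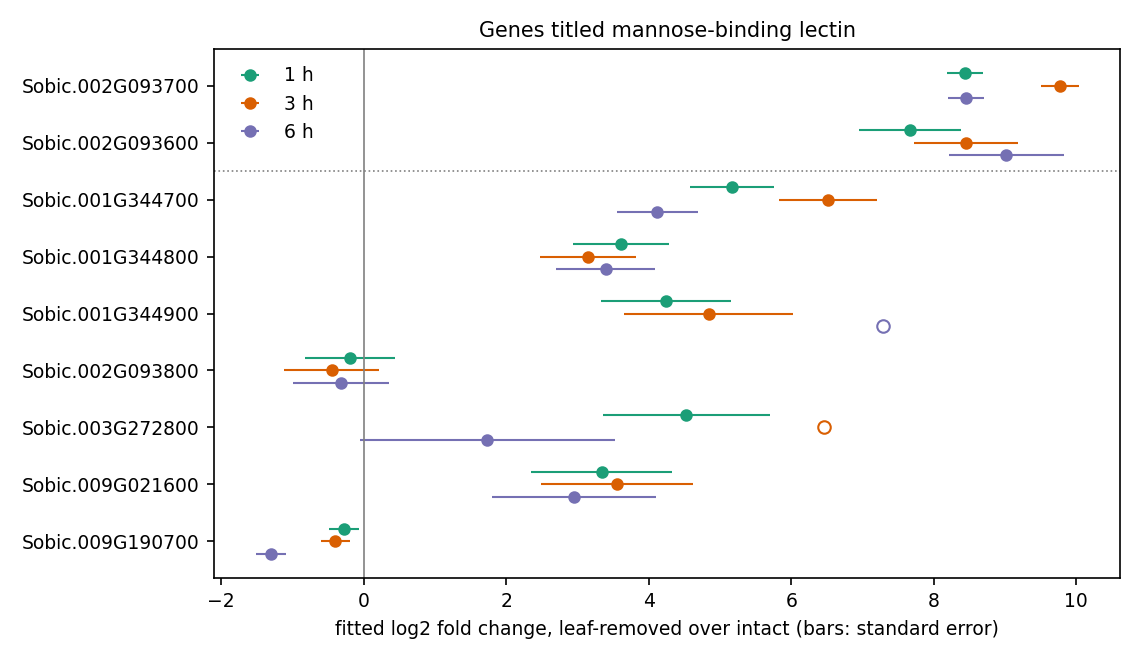
Fitted log2 fold change between leaf-removed and intact buds with its standard error for the pair (above the dotted line) and the 7 other tested genes titled mannose-binding lectin (3 of them tested only through leaf-removed libraries), 1 point per time; open circles mark fits with no intact read, for which only a lower bound of the fold is known. The pair lies between 7.67 and 9.77, and Sobic.009G190700 is at -1.30 at 6 h.

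The tested genes next to the pair in identifier order had far smaller changes. Of the 10 identifiers before and the 10 after it, 9 had enough reads to test, and their log2 fold changes lay between -0.47 and 1.42 at 1 h, between -1.03 and 0.49 at 3 h and between -2.63 and 0.07 at 6 h. At 1 h 2 were called higher, Sobic.002G093000 without a title (1.08 ± 0.16, edgeR adjusted p = 3.5e-05) and Sobic.002G094600, titled cellulose synthase 6, a subunit that makes primary wall cellulose in Arabidopsis (0.65 ± 0.21, adjusted p = 0.019). At 3 h 1 was called, Sobic.002G093900, titled decapping 1 after a protein of messenger RNA turnover (-0.42 ± 0.12, adjusted p = 0.016). At 6 h Sobic.002G092801 (-2.63 ± 0.95, adjusted p = 0.041) and Sobic.002G093000 (-0.62 ± 0.16, adjusted p = 0.0061) were lower. Of all tested genes 24.82%, 17.80% and 18.04% were called higher at 1, 3 and 6 h, and 24.08%, 16.16% and 15.92% lower. With 9 genes nothing about this stretch of identifiers is read from the counts.

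Just before the pair stand 3 genes titled peptidase M20/M25/M40 family protein. Sobic.002G093300 was at -0.14, 0.12 and 0.07 at 1, 3 and 6 h and not called, and Sobic.002G093500 had no read in any library. Sobic.002G093400, too low to test, had 1 read in the intact and 24 in the leaf-removed group at 1 h, 3 against 31 at 3 h and 0 against 15 at 6 h. Distances between these genes were not analysed here, so the order is that of the identifiers alone.

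**Figure D4:**
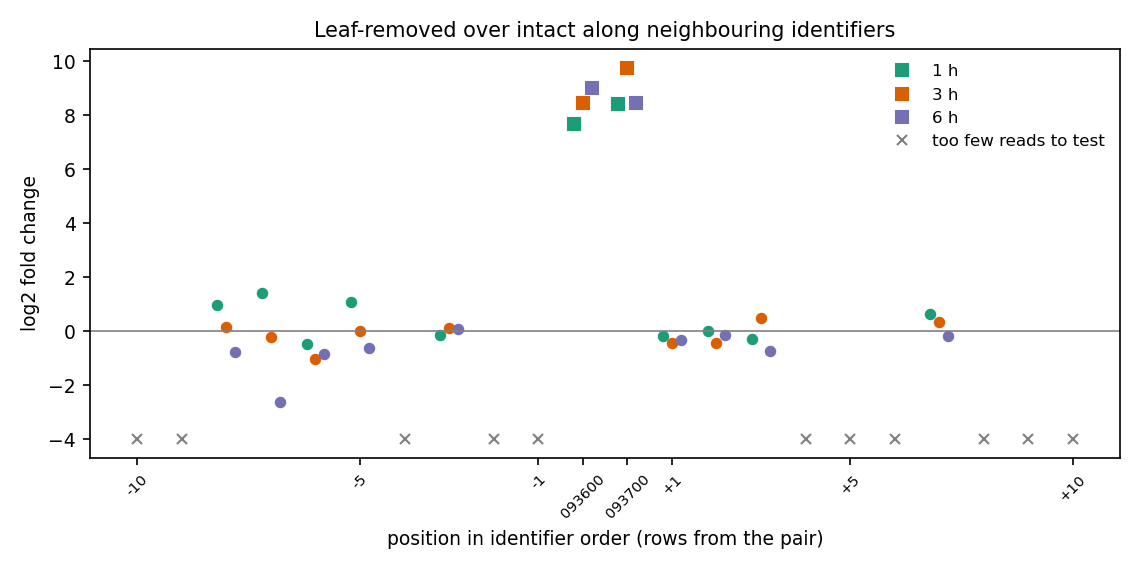
Log2 fold change between leaf-removed and intact buds for the pair (squares) and the tested genes among the 10 identifiers on each side (circles), in identifier order, with crosses along the lower edge, at no measured value, for genes with too few reads. The squares lie between 7.67 and 9.77 and the circles between -2.63 and 1.42.

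The genes whose pattern over the 18 libraries was most like the mean of the pair were found by Pearson's r of log2 CPM (counts scaled to 1e6 reads), among 16099 genes that reach 5 CPM in their highest group. Likeness was common, since 414 genes had r above 0.9, and it mainly reflects the step between intact and leaf-removed libraries. Sobic.002G421200, titled glutathione S-transferase, a class of detoxifying enzymes, came first (r = 0.99), followed by Sobic.003G356400, which has no title, Sobic.006G005500, titled RING finger protein, and Sobic.003G085300, which has no annotation. The others of the first 8 were Sobic.002G052100 (chlorophyll A-B binding family), Sobic.001G011400 (Sec14p-like), Sobic.006G005400 (RING finger) and Sobic.003G068300, titled HCT for an acyltransferase of lignin synthesis, all with r = 0.98.

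Within the 9 leaf-removed libraries alone the likeness of these 8 ran from r = 0.22 for Sobic.003G068300 to r = 0.86 for Sobic.006G005500. Sobic.006G005500 and Sobic.006G005400 are another couple of consecutive identifiers. The log2 fold changes of Sobic.006G005500 were 8.83, 9.23 and 8.57 at 1, 3 and 6 h, within the range of the lectin pair. Those of Sobic.002G421200 were 2.74, 3.21 and 3.15, a far smaller change on a much higher intact level.

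Genes with other lectin titles were called in both directions. Of 87 tested genes with another lectin title, most of them receptor kinases with a lectin domain and 5 included only because their title holds the word plectin, 26 were called higher (29.9%) and 16 lower (18.4%) at 1 h, against the 24.82% and 24.08% of all tested genes. The counts were 14 higher (16.1%) against 15 lower (17.2%) at 3 h, close to the shares of all genes. At 6 h they were 8 (9.20%) against 13 (14.9%), beside 18.04% and 15.92% of all genes. With library totals, 7 were higher and 22 lower at 6 h. Their median log2 fold change was 0.36, -0.03 and -0.34 at the 3 times, against -0.01, 0.00 and -0.03 over all tested genes. Of the 87 genes 15 had enough reads only through leaf-removed and 3 only through intact libraries. Examples are the S-locus lectin kinase gene Sobic.010G175100, which fell at all times (-2.68 ± 0.33, -2.12 ± 0.32 and -2.16 ± 0.31, edgeR adjusted p = 5.8e-06 to 8.9e-05). The malectin receptor kinase gene Sobic.001G353900 rose by 2.02 ± 0.14 at 1 h (adjusted p = 1.8e-08) and was lower by 6 h (-0.83 ± 0.14, adjusted p = 0.00038). Another malectin kinase gene, Sobic.010G028950, was at 0.13 at 1 h and -2.04 ± 0.21 at 6 h (adjusted p = 3.8e-06), and Sobic.001G361800, titled plectin-related, was at -1.93 ± 0.09 at 1 h (adjusted p = 4.1e-10).

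Dirigent proteins, which steer the coupling of lignan and lignin precursors, were counted because some grass jacalin lectins carry such a domain. Of 17 tested genes 7 were called higher (41.2%) and 0 lower at 1 h, 3 (17.6%) against 1 (5.88%) at 3 h and 4 (23.5%) against 1 at 6 h. Of all tested genes 24.82%, 17.80% and 18.04% were called higher at 1, 3 and 6 h, and 24.08%, 16.16% and 15.92% lower. The share of dirigent genes higher at 3 h was close to that of all genes. The dirigent counts include 5 genes with enough reads only through leaf-removed libraries and 1 only through intact ones. Sobic.005G101600, Sobic.005G101800 and Sobic.005G192600, among the 7 higher at 1 h, passed only through leaf-removed libraries. Passing on 1 side favours genes that differ, though not at every time. With library totals 6 were higher and 1 lower at 1 h. The 4 genes named here are among those that passed on 1 side only, and their values are given without a test. Sobic.005G101600 had 11 reads in the intact group and 717 in the leaf-removed group at 1 h, and 9 and 12 at 6 h. Sobic.005G192600 was at 4.04 ± 0.53, 4.14 ± 0.63 and 3.60 ± 0.60 on the log2 scale. Sobic.005G101800 had 3 against 18 reads at 1 h, 0 against 56 at 3 h and 0 against 58 at 6 h. Sobic.002G119900 was at -4.36 ± 0.82 at 3 h and -2.60 ± 0.68 at 6 h. At 3 h without the 5 libraries 6 dirigent genes were higher and 2 lower. That setting called 10346 of all genes at 3 h, against 7420.

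Of 24 tested genes titled beta-glucosidase 10 were called higher (41.7%) and 2 lower (8.33%) at 1 h, 9 (37.5%) against 3 (12.5%) at 3 h and 10 against 2 at 6 h. By direction, 24.82%, 17.80% and 18.04% of all tested genes were higher at the 3 times, and 24.08%, 16.16% and 15.92% lower. Either way, 12 of the 24 were called at each time, 50% against 48.9% of all tested genes at 1 h and 34.0% later. The median log2 fold change was 0.24, 0.12 and 0.10. With library totals 7 were higher and 3 lower at 6 h. Sobic.002G261600, titled beta glucosidase 11, had its largest change at 1 h (3.46 ± 0.21, edgeR adjusted p = 3.6e-09) and smaller ones at 3 h (1.79 ± 0.20) and 6 h (0.86 ± 0.20, adjusted p = 0.0037), while Sobic.009G114000, with the same title, was at 1.63 ± 0.17, 2.42 ± 0.18 and 2.27 ± 0.18. Sobic.002G247600, titled beta glucosidase 17, was at 0.07 ± 0.35 at 1 h and then higher by 4.11 ± 0.38 at 6 h (adjusted p = 1.5e-06). Sobic.001G221800, of the GBA2 type, was called higher at 1 h (1.72 ± 0.11, adjusted p = 8.5e-09), and its values at 3 h and 6 h were -0.05 and -0.01.

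Markers of other tissues were summed in the same libraries. Over 20 leaf mesophyll markers, of which 1, an LHCB1 gene, was at 0, RPKM was 884 to 2271 in intact and 1279 to 1829 in leaf-removed libraries at 1 h, with 3 of 19 tested genes called higher and 1 lower. It was 2581 to 4460 against 1639 to 2885 at 3 h (1 and 3 called) and 2234 to 3510 against 1395 to 2634 at 6 h (2 and 2). Summed over 11 vascular or secondary wall markers, none at 0, it was 10.9 to 13.8 against 10.01 to 28.5 at 1 h (2 of 8 higher, 0 lower), 8.15 to 9.10 against 12.8 to 16.3 at 3 h (1 and 0) and 8.49 to 14.7 against 8.72 to 16.8 at 6 h (0 and 0). The shoot meristem and boundary markers summed to 71.5 to 112 against 48.6 to 73.5 at 1 h (0 of 11 higher, 4 lower), 93.4 to 94.2 against 74.5 to 94.4 at 3 h (0 and 0) and 82.3 to 126 against 46.5 to 99.9 at 6 h (0 and 2). Beside these counts stand the shares of all tested genes. Higher calls made up 24.82%, 17.80% and 18.04% of them at the 3 times. Lower calls made up 24.08%, 16.16% and 15.92%. No marker list was compared with these shares by a test, so no shift between tissues is read from the counts. The part of the markers in the levels of the lectin pair was not tested.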

How the data were processed

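The deposited table holds, for each of 34211 genes and 18 libraries, counts of total and unique exon and intron reads, an exon length and an RPKM, per the file headers. RPKM is the authors' value and was used for levels only. Per the file headers the authors also deposited signed fold changes, a score with no values between -1 and 1, from their EDGE test (tagwise dispersions). Neither an aligner nor a genome build is given in the sources used here. Per the labels' protocols, Trizol RNA was DNase-digested and column-purified, and TruSeq libraries gave reads of 125 bases on an Illumina HiSeq. Gene names are those of the deposited annotation. No identifier matched the RefSeq gene table, so positions and sequences were not used here.

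Total exon counts were fitted in 1 model of 6 groups with edgeR 4.0.16 under R 4.3.3 (TMM, default expression filter, quasi-likelihood F test, 12 residual degrees of freedom, Benjamini-Hochberg over 21852 genes, called under 0.05). The biological coefficient of variation was 24.9%. A gene passed the filter with 0.349 CPM (counts scaled to 1e6 reads) in 3 libraries, and both lectin genes passed on the intact side alone. Fitted folds used a prior count of 0.125 and log2 CPM a prior count of 2. The standard error of a fitted log2 fold change was derived from its test. It is the size of the fold change fitted without a prior count, divided by the square root of the F statistic. Where reads are few it is approximate. A group with no read was given an upper limit of 3 reads over the group. Other steps used Python 3.11.15, numpy 2.4.6, pandas 2.3.3 and matplotlib 3.10.9. Reads carry no molecular identifiers, so counting intervals cover counting error only.

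The pair and all gene lists were chosen with earlier results of these data known. Lists came from words in titles, and the neighbours, the 8 most alike genes and, per other list and time, the 2 called genes with the smallest p were named by rule. Nothing says that pools were separate cultures, so p-values measure the spread between pools. Alternatives were DESeq2 1.42.0, library totals, no filter, a filter of 1 CPM in 9 libraries, unique reads, a prior count of 2, blocks by replicate letter, each library left out, and leaving out the 5 libraries that deviate alike.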

Additional observations from a re-analysis of the deposited data

Results flagged for a closer look

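Of the 7 other tested genes titled mannose-binding lectin, Sobic.009G190700 had a leaf removal effect that differed between times. The effect at 6 h minus that at 1 h was -1.03 ± 0.29 on the log2 scale (edgeR interaction test, Benjamini-Hochberg adjusted p = 0.011), with -0.27 at 1 h and -1.30 at 6 h. Across the 7 genes 21 such differences were computed, and 38.1% of all tested genes were called in this comparison of times. With library totals Sobic.009G190700 was called lower at 1 h too (-0.52, edgeR adjusted p = 0.035). With the replicate letter as a block within each time it was not called at 6 h (-1.21, edgeR adjusted p = 0.060). That block leaves intact pool c and leaf-removed pool b out of the 6 h contrast, since only letters a and d occur in both groups. In RPKM every leaf-removed library of the gene lay below every intact library of the same time. How many of all tested genes separate in this direction was not counted, so nothing is read from it.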

How the results depend on the processing

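The folds of the pair kept their direction under every alternative run. Sobic.002G093600 ran from 7.15 to 8.95 at 1 h, 7.52 to 8.86 at 3 h and 8.63 to 10.17 at 6 h with 1 library left out, and Sobic.002G093700 from 9.55 to 10.13 at 3 h. Library totals gave 8.20 for Sobic.002G093700 at 1 h. Left-out libraries turned Sobic.002G093800 (-1.44 to 0.20 at 3 h, -0.75 to 0.14 at 6 h) and Sobic.003G272800 (-1.90 to 3.68 at 6 h), and moved the dirigent calls at 6 h from 5 to between 3 and 6. Without the 5 libraries Sobic.002G093800 was at 0.029 at 6 h and 8 dirigent genes were called at 3 h, against 4. Over all genes this setting called 10346 at 3 h, against 7420. The filter of 1 CPM in 9 libraries tested fewer genes. With it 3 and 3 of 4 mannose-binding lectin genes were called at 1 and 3 h. The main fit called 5 and 5 of 7, with the 3 genes tested only through leaf-removed libraries. Of other lectin genes 27 of 58 were called at 1 h, against 42 of 87. Of dirigent genes 2, 0 and 2 of 7 were called at 1, 3 and 6 h, against 7, 4 and 5 of 17. Replicate letters are not stated to link libraries, and 1 of 6 libraries at 1 h correlated best with its own letter. Same-letter deviations correlated by -0.405 to 0.295 at 1 h and by -0.405 to 0.528 over all times. The 0.528 is letter d at 6 h, where both libraries are among the 5 that deviate alike. With the replicate letter as a block within each time, 2596 genes were called at 3 h and 2453 at 6 h (against 7420 and 7421), 1 and 1 mannose-binding lectin genes, 27, 6 and 5 other lectin genes at 1, 3 and 6 h, 1 dirigent gene at 6 h, 6 and 6 beta-glucosidase genes at 3 and 6 h, Sobic.002G093600 was at 10.32 at 6 h and Sobic.002G093800 at 0.41 at 3 h, and Sobic.003G272800 gave no value at 6 h. With the block over all times 9957, 6032 and 6031 genes were called. Of the values of single family genes under alternatives that left out no single library, 145 kept direction and side of the threshold, 2 turned sign, 3 passed it newly and 8 no longer passed it. In the block within each time, only letters b and c at 3 h and a and d at 6 h occur in both groups. The other libraries of those times do not enter the blocked contrast. Sobic.003G272800 had no read in the 6 h libraries a and d of either group. Beyond this and the fewer genes under the stricter filter, the cause of these shifts was not tested. Depth limits the intact level of Sobic.002G093600, with 3 to 49 reads per library.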
